A study of Sus scrofa with 6 samples.

Results

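The genes described here set when cyclin B is destroyed. They are the activators CDC20 and FZR1 of the anaphase-promoting complex (APC/C), its inhibitors FBXO5 and FBXO43, securin (PTTG1), and the spindle checkpoint genes BUB1, BUB1B, BUB3, MAD2L1 and TTK. They were chosen by gene name from the table of normalized transcript abundance. Of the 10 names, 9 were found once each among 17678 genes. PTTG1 was not found by name, so it is named only and has no value here.

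The APC/C is a ubiquitin ligase that marks cyclin B and securin for the proteasome, which ends mitosis. CDC20 activates it at the metaphase-to-anaphase transition, and FZR1 (CDH1) activates it in late mitosis and G1. The spindle checkpoint holds CDC20 in check while any kinetochore lacks microtubules, and FBXO43 (EMI2) holds the egg in metaphase II until activation. In pig embryos of 2 cells the large part of the messenger RNA is of maternal origin, because the embryonic genome is activated later.

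The series compared 2-cell porcine embryos whose MII oocytes had been freed of cumulus cells and injected with non-specific siRNA (NC) with embryos whose oocytes had received siRNAs against several sites of SIN3A, the scaffold of a histone deacetylase complex (SIN3A KD). Both groups were then activated parthenogenetically by electric pulses followed by cycloheximide and cytochalasin B, so every embryo carried a maternal genome alone, and both were harvested at 32 h. Each group had 3 replicates, each a pool of 20 embryos from oocytes of crossbred (Landrace × Yorkshire × Duroc) slaughterhouse ovaries matured in vitro, and the sources used here do not say whether same-numbered pools came from 1 batch of oocytes. The permutation p-values rest on these pools alone, and the p-values of limma also draw on a variance trend over all genes.

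Libraries held an estimated 7800000 to 13000000 reads (NC) or 10200000 to 15800000 reads (KD). Between 405 and 9668 estimated reads stood behind each value of the 9 genes. SIN3A itself fell to 8.22% of its NC mean (log2 fold change -3.81, SE 0.31, limma adjusted p = 8.45e-06), and without a variance trend the same fold change had an adjusted p of 0.423 by limma. Of 10 oocyte and embryo markers, 7 were found by name, and their summed abundance was 29039 to 32831 in NC and 30484 to 34963 in KD libraries. Of 12 markers of cumulus and granulosa cells, which surround the oocyte, 10 were found, and their sum was 42.7 to 55.3 in NC and 36.5 to 72.4 in KD libraries. PTGS2 and PTX3 of that list were listed at 0 in all 3 KD libraries, but their NC means were only 2.59 and 1.51, near the floor. INHBA, HAS2, TNFAIP6 and AMH also had lower means in KD, while CYP19A1, STAR, FOXL2 and CYP11A1 had higher means. No marker was at 0 in all 6. FSHR and HSD3B1 were not found. Of the oocyte markers, DPPA3, NLRP5 and DAZL were not found.

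The first question was what the ends of these messages hold, since the libraries were made from RNA captured on oligo(dT) beads and so from its poly(A) tails. All 9 genes matched a RefSeq gene of Sscrofa11.1. A polyadenylation hexamer (AATAAA or ATTAAA) lay in the last 50 bases of the longest RefSeq mRNA in 9 of 9, against 73% of 9676 tested genes with a RefSeq mRNA. A cytoplasmic polyadenylation element, the motif through which stored maternal messages regain their tails, was searched as TTTTAT or TTTTAAT on the mRNA strand in the last 150 bases. FBXO5 and MAD2L1 held one of these forms, 2 of 9 genes against 25.7% of all. Other forms of the element were not searched. FBXO5 held 3 copies and MAD2L1 held 1. CCNB1, the cyclin whose message fell in KD embryos, also held 1. The next 3 stretches, each within 1 exon at the 3′ end of its gene, show the element nearest to the mRNA end in capitals, mRNA strand, 5′ to 3′.

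FBXO5 (chr1:13478416-13478445, plus strand, 58 bases before the mRNA end): gtaaatgtttatTTTTATatgtcaaagaaa
MAD2L1 (chr8:103936591-103936620, plus strand, 61 bases before the mRNA end): ttaaaaatgcctTTTTATgtttcataaaaa
CCNB1 (chr16:47348301-47348330, plus strand, 67 bases before the mRNA end): aaaaatgagaaTTTTAATttatattcaaaa

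The hexamers differed between the genes. CDC20, FZR1 and TTK are shown because the activators differ in this signal and TTK shares that of FZR1, with the hexamer in capitals. Nearest to the end, FZR1 and TTK held ATTAAA, and the other 7 genes AATAAA.

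CDC20 (chr6:167886274-167886303, minus strand): ttttacttttctAATAAAgccacatgtctc
FZR1 (chr2:75122603-75122632, minus strand): aatgtgcgtaacATTAAAgtgtatgattta
TTK (chr1:86076582-86076611, minus strand): cagtatgattatATTAAAtttgtttctacc

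At the other end, the cell cycle homology region TTTGAA, a promoter element of many genes expressed in G2 and mitosis, was searched on both strands from 250 bases before to 50 bases after the start of the longest mRNA. It was in CDC20, BUB1B, MAD2L1 and TTK, 4 of 9 genes against 11.4% of all 9676. The match in CDC20 that lies 34 bases after its start and the match in TTK, also 34 bases after its start, are shown with the motif or its reverse complement TTCAAA in capitals. CDC20 and MAD2L1 each held 2 matches. A match is a description of letters, and RefSeq starts may differ from those used in the embryo.

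CDC20 (chr6:167890538-167890567, minus strand): tgcgacggttgggtTTTGAAggaaccaatc
TTK (chr1:86125216-86125245, minus strand): tagcggcggggaaaTTCAAAtgtgtttgcg

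Next the levels were compared with each other. Values were divided by the length of the longest RefSeq mRNA in kilobases, since a longer message gives more reads. On this scale the genes spanned a 14.5-fold range in NC embryos. BUB1B, the checkpoint protein BUBR1, had the highest level with 1866 ± 218 per kb (SD, n = 3), which was above 97.9% of the 9676 tested genes with a length. CDC20 followed with 1149 ± 75.5 per kb and MAD2L1, which binds CDC20 in the checkpoint complex, with 834 ± 46.1 per kb. FBXO43 (425 ± 23.2 per kb), TTK (402 ± 35.2 per kb) and BUB3 (389 ± 26.8 per kb) stood together on this length. FBXO5 had 287 ± 38.9 per kb and BUB1 186 ± 21.7 per kb. FZR1 was lowest with 129 ± 9.34 per kb, which was still above 65.3% of the genes.

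The neighbours FBXO43 and TTK overlapped in NC libraries, as did TTK and BUB3 (p = 0.5 each by an exact two-sided permutation test within libraries). The other 6 pairs of neighbours did not overlap, and the higher gene was above the lower in 3 of 3 NC libraries. Since both genes of a pair come from the same libraries, this exact test cannot go below p = 0.25, the value of each of these pairs. BUB1B, CDC20 and MAD2L1 took the first 3 places in this order in all 6 libraries, and FBXO5, BUB1 and FZR1 took the last 3. Only FBXO43, TTK and BUB3 changed places. The choice of mRNA changed the middle and lower places. FZR1 has 6 RefSeq mRNAs from 1603 to 4769 bases, and with the shortest mRNA of each gene, a choice made after seeing the data, it had 383 per kb and passed FBXO5 (355 per kb) and BUB1 (186 per kb). With the shortest mRNAs BUB3 had 711 per kb and passed FBXO43 (425 per kb) and TTK (412 per kb), which placed it after MAD2L1.

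**Figure D1:**
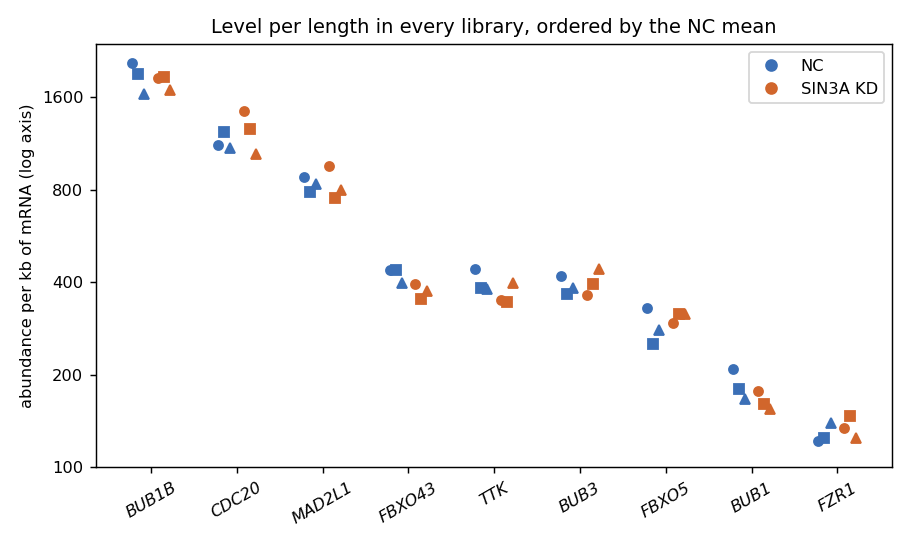
Abundance per kilobase of the longest RefSeq mRNA (log axis) of the 9 genes in each of 3 NC and 3 SIN3A KD libraries, ordered by the NC mean, with a marker shape for each replicate number. BUB1B is highest at 1634 to 2067 in NC and FZR1 lowest at 122 to 140, and the colours of the groups mix within each gene except FBXO43.

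The main comparison asked whether these messages differed between NC and SIN3A KD embryos. For scale, CCNB1 measured 8891, 9039 and 7729 in NC and 2113, 974 and 2171 in KD pools 1 to 3, and it fell to 20.5% of its NC mean (limma adjusted p = 1.36e-05). Without a variance trend its fold change stayed the same, with a limma adjusted p of 0.423. None of the 9 passed an adjusted p of 0.05 by limma, and 0 had an unadjusted p below 0.05. Over all 11986 genes tested, 0.159% passed the adjusted p (0.0584% higher in KD and 0.1% lower) and 4.61% had an unadjusted p below 0.05. Of the 9 fold changes, 4 were above 0 and 5 below. Their median was -0.0056 on the log2(value + 1) scale, beside 0.0026 over all genes, and they ran from -0.18 for FBXO43 to 0.11 for FBXO5 and CDC20. The median size of the change, without sign, was 0.11 in the 9 genes, 0.12 over all genes and 0.069 over the 3462 genes with a mean at least as high as the lowest of the 9. In pooled embryos fewer embryos with a message and less of it per embryo cannot be told apart. Nor can less message be told from a shorter poly(A) tail, since RNA was captured by its tails and tail length was not measured.

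The 2 activators are described first. CDC20 (ENSSSCG00000003949) maps to chromosome 6 from 167886266 to 167890587 on the minus strand. Its abundance was 2058, 2271 and 2010 in the 3 NC pools, numbered 1 to 3, and 2651, 2325 and 1917 in the KD pools, numbered likewise. KD replicate 1 was the highest library and KD replicate 3 the lowest, so the KD values enclosed the NC values. CDC20 averaged 2113 ± 139 in NC and 2297 ± 368 in KD (SD, n = 3 each). The log2 fold change was 0.11 with a 95% interval from -0.12 to 0.34 (SE 0.11, limma adjusted p = 0.997). Without KD replicate 3 it was 0.23, with an unadjusted p of 0.037 and an adjusted p of 0.784 from limma, the only time a gene of the 9 had an unadjusted p below 0.05 in any setting.

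FZR1 (ENSSSCG00000013481) maps to chromosome 2 from 75122599 to 75164134 on the minus strand. It measured 583, 596 and 666 in NC and 643, 699 and 596 in KD pools 1 to 3. The groups overlapped over most of their range, with means of 615 ± 44.6 in NC and 646 ± 51.9 in KD (SD, n = 3 each). The log2 fold change was 0.07 with a 95% interval from -0.17 to 0.31 (SE 0.11, limma adjusted p = 0.997).

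Of the 2 inhibitors, FBXO5 and FBXO43, FBXO5 (EMI1) restrains the APC/C in S and G2 phase so that cyclins can build up. FBXO5 (ENSSSCG00000004077) maps to chromosome 1 from 13466961 to 13478496 on the plus strand. Its abundance was 850, 651 and 724 in NC and 759, 817 and 812 in KD pools 1 to 3. NC replicate 1 was the highest library and NC replicate 2 the lowest, and the 3 KD values lay between them. NC had a mean of 742 ± 100.4 and KD 796 ± 31.8 (SD, n = 3 each), and the log2 fold change came to 0.11 with a 95% interval from -0.13 to 0.35 (SE 0.12, limma adjusted p = 0.997).

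FBXO43 (ENSSSCG00000006068) maps to chromosome 4 from 36856662 to 36872753 on the plus strand. It measured 1607, 1600 and 1457 in NC and 1446, 1286 and 1375 in KD pools 1 to 3. Every KD library was below every NC library, by a margin of 1457 against 1446 at the nearest. FBXO43 was the 1 gene of 9 whose groups did not overlap, beside 9.79% of all genes tested, and 4.94% had all KD values below all NC values, as it did. Its mean was 1555 ± 84.9 in NC and 1369 ± 80.3 in KD (SD, n = 3 each), so the KD mean was 88.1% of the NC mean. The log2 fold change was -0.18 with a 95% interval from -0.38 to 0.018 (SE 0.10, limma p = 0.071, adjusted p = 0.997), with p = 0.1 by a two-sided exact permutation test, which is the minimum for 3 against 3. The difference is not past the threshold.

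**Figure D2:**
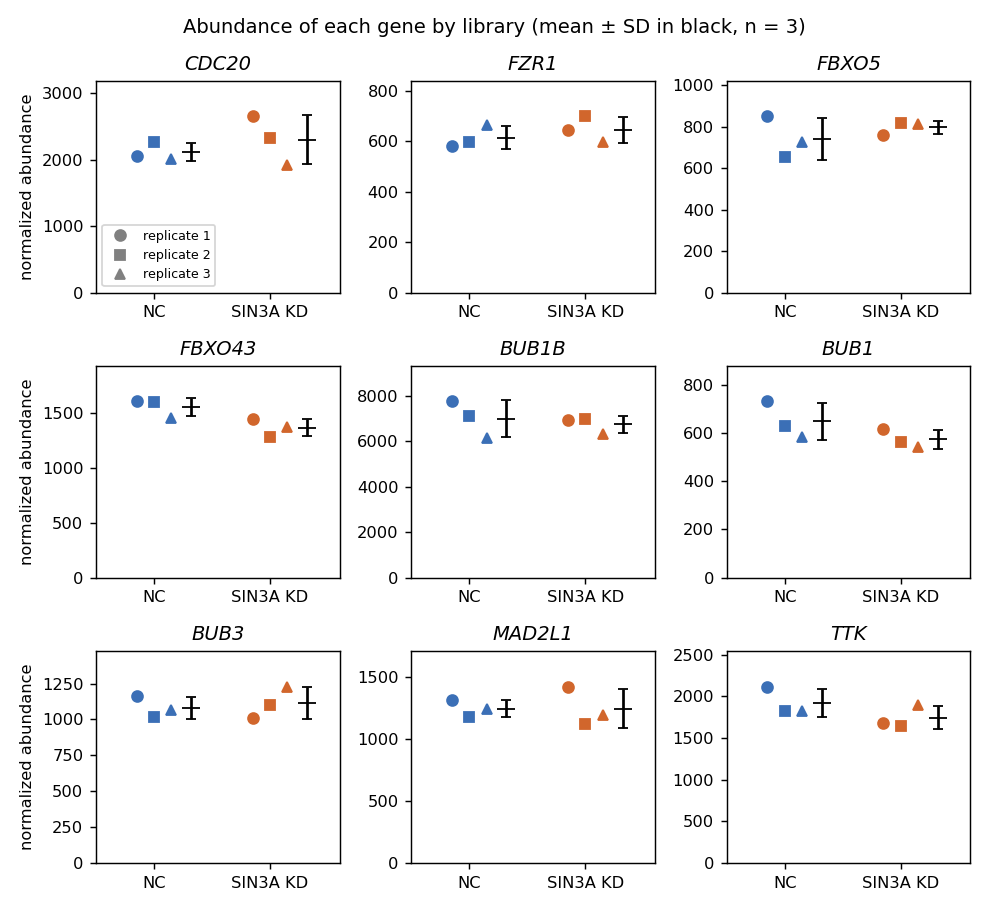
Normalized abundance (vertical axes from 0) of each of the 9 genes in NC (blue) and SIN3A KD (orange) libraries, with a marker shape for each replicate number and the mean ± SD of 3 libraries in black. The groups overlap in every panel except FBXO43, where the NC values are 1457 to 1607 and the KD values 1286 to 1446.

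The spindle checkpoint genes were next. BUB1B (ENSSSCG00000004782), which with MAD2L1 and BUB3 holds CDC20 in the mitotic checkpoint complex, maps to chromosome 1 from 131093026 to 131143840 on the minus strand. Its abundance was 7749, 7107 and 6127 in NC and 6943, 6961 and 6322 in KD pools 1 to 3. All 3 KD values lay inside the NC range. The log2 fold change was -0.05 with a 95% interval from -0.25 to 0.15 (SE 0.09, limma adjusted p = 0.997).

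MAD2L1 (ENSSSCG00000036256), the checkpoint protein MAD2, maps to chromosome 8 from 103927358 to 103936669 on the plus strand. It measured 1311, 1174 and 1238 in NC and 1420, 1117 and 1188 in KD replicates 1 to 3, and the KD values enclosed the NC values. The means were 1241 ± 68.7 in NC and 1242 ± 158 in KD (SD, n = 3 each), the closest pair of means of the 9 genes, at a log2 fold change of -0.0056 with a 95% interval from -0.23 to 0.22 (SE 0.11, limma adjusted p = 0.999).

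BUB3 (ENSSSCG00000010726), the adaptor that carries BUB1 and BUBR1 to kinetochores, maps to chromosome 14 from 132703088 to 132715353 on the plus strand. Its abundance was 1161, 1015 and 1065 in NC and 1012, 1101 and 1229 in KD pools 1 to 3. The groups overlapped, at a log2 fold change of 0.04 with a 95% interval from -0.18 to 0.26 (SE 0.11, limma adjusted p = 0.997).

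The 2 checkpoint kinases both had lower means in KD. BUB1 (ENSSSCG00000030469), which marks centromeric chromatin, maps to chromosome 3 from 45585188 to 45623240 (plus strand) and measured 730, 629 and 582 in NC and 618, 562 and 540 in KD pools 1 to 3. KD replicate 1 stood above NC replicate 3, so the groups overlapped, and the log2 fold change was -0.17 with a 95% interval from -0.42 to 0.081 (SE 0.12, limma adjusted p = 0.997). TTK (MPS1, ENSSSCG00000004466), the kinase that starts checkpoint signalling, maps to chromosome 1 from 86076576 to 86125334 (minus strand) and measured 2117, 1829 and 1821 in NC and 1677, 1649 and 1900 in KD pools 1 to 3. KD replicate 3 lay above 2 of the 3 NC values, and the log2 fold change was -0.14 with a 95% interval from -0.35 to 0.067 (SE 0.10, limma adjusted p = 0.997). Two-sided exact permutation p was 0.2 for BUB1 and 0.3 for TTK.

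The intervals give the range of change that these libraries allow under the variance trend over all genes. Over the 9 genes the 95% intervals of limma reached from 74.7% of the NC level, for BUB1, to 128% of it, for FBXO5. All of them lay between -0.8 and 0.8, the cut-off for fold changes that the authors applied, and standard errors ran from 0.094 to 0.12. Without the variance trend standard errors ran from 0.11 for FBXO43 to 0.15 for CDC20. The interval of CCNB1 reached from -2.81 to -1.94 around its log2 fold change of -2.37, and overlapped none of the 9. The spread between pools was 5.46% to 13.5% of the mean in NC, with a median of 7.25%, and up to 16.0% in KD, with a median of 7.90%. Over the 3462 genes at or above the same abundance the median was 7.73% in NC and 6.95% in KD.

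**Figure D3:**
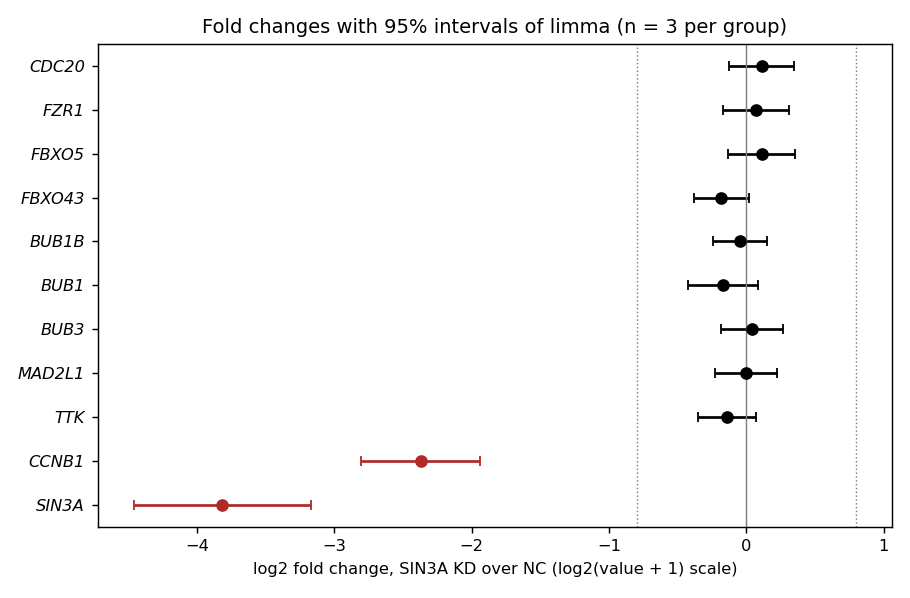
Log2 fold change of SIN3A KD over NC embryos (horizontal axis) of the 9 genes in black, with CCNB1 and SIN3A in red for scale, and 95% intervals of limma as bars. Dotted lines mark the authors' threshold of 0.8 in either direction. The 9 intervals all cover 0 and stay between -0.42 and 0.35, while CCNB1 lies at -2.37 and SIN3A at -3.81.

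Since activators and inhibitors act against each other, their messages were compared as a ratio within each library, which does not depend on the scaling between libraries. Ratios below are of levels per kb of the longest mRNA, and 4 were compared. The ratio of PTTG1 to CCNB1 had no value. The ratio of CDC20 to FZR1 was 9.16, 9.89 and 7.83 in NC and 10.7, 8.62 and 8.35 in KD pools 1 to 3. CDC20 was above FZR1 in all 6 libraries. With the shortest mRNAs it was so too, but the NC mean of the ratio was 3.69 ± 0.429 (SD, n = 3). The groups overlapped, with a log2 difference between groups of 0.04 (standard error 0.15). The ratio of FBXO5 to FZR1 was 2.24 ± 0.392 in NC and 2.29 ± 0.202 in KD (SD, n = 3 each), with a log2 difference of 0.04 (standard error 0.16). The order of these genes turns with the length, since the shortest mRNAs gave a ratio of 0.931 ± 0.163 in NC and 0.950 ± 0.0839 in KD (SD, n = 3 each). The length is 1 factor for all libraries, so the log2 differences between groups do not depend on it. For both ratios the groups overlapped (exact permutation test, two-sided p = 0.8 and 0.7).

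The other pair set inhibitors and checkpoint partners against CDC20. MAD2L1 to CDC20 was 0.729 ± 0.0793 in NC and 0.674 ± 0.0865 in KD (SD, n = 3 each). The log2 difference was -0.12 (standard error 0.14), with an exact permutation p of 0.6. The ratio of FBXO43 to CDC20 was 0.393, 0.354 and 0.364 in NC and 0.274, 0.278 and 0.361 in KD pools 1 to 3. KD replicates 1 and 2 were below all NC libraries and KD replicate 3 was inside their range. The log2 difference was -0.29 (standard error 0.14), the largest of the 4 in size, with an exact two-sided permutation p of 0.2. The Benjamini-Hochberg adjusted p was 0.8 for each of the 4 ratios.

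With the message of the substrate CCNB1 in the ratio the picture differed. CCNB1 was set against each activator after the data were seen, so its known fall fixes the outcome and no test is given. These are ratios of messages, and the libraries hold no measure of protein or of APC/C activity. The ratio of CCNB1 to CDC20 was 3.88, 3.58 and 3.46 in NC and 0.717, 0.377 and 1.02 in KD pools 1 to 3. The ratio averaged 3.64 ± 0.220 in NC and 0.704 ± 0.321 in KD (SD, n = 3 each). On the longest mRNAs CCNB1 exceeded CDC20 in all 3 NC libraries and stood below it in 2 of 3 KD libraries, and on the shortest it stood below in 3 of 3, with 0.585, 0.307 and 0.831. The log2 difference was -2.48 (standard error 0.42). CCNB1 to FZR1 was 32.7 ± 4.85 in NC and 6.47 ± 2.82 in KD (SD, n = 3 each), a log2 difference of -2.44 (standard error 0.46). With the shortest mRNAs CCNB1 to FZR1 was 10.99 ± 1.63 in NC and 2.175 ± 0.949 in KD (SD, n = 3 each).

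**Figure D4:**
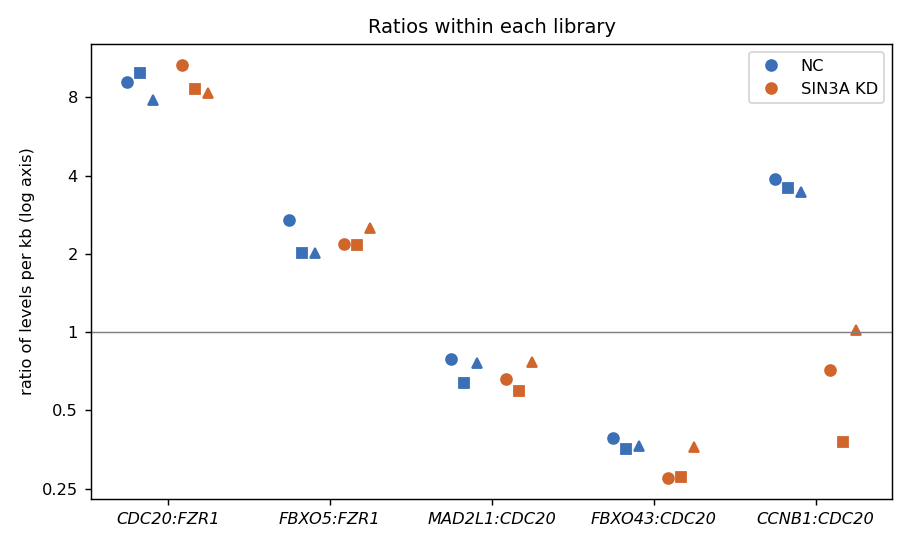
Ratios of levels per kb (log axis) within each library for 5 pairs of genes, NC in blue and SIN3A KD in orange, with a marker shape for each replicate number and a line at 1. The groups overlap in the first 4 pairs, while CCNB1 to CDC20 is 3.46 to 3.88 in NC and 0.377 to 1.02 in KD.

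The other genes of the pathway were taken from 4 lists of 44 genes, of which 39 were found and 36 had a mean of at least 10. By limma 1 of the 36 passed the adjusted p over all genes, CCNB1, which was lower, and none was higher. Their median log2 fold change was 0.0016, beside 0.0026 over all genes, and 3 had an unadjusted p below 0.05, which are CCNB1, UBE2D1 and ESPL1. Over all 11986 genes tested, 0.159% passed the adjusted p and 4.61% had an unadjusted p below 0.05 by limma.

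Among the subunits of the APC/C itself, 11 of 14 were tested and 0 passed, with 0 at an unadjusted p below 0.05. ANAPC7, a scaffold subunit with the highest mean abundance of the list, measured 2969, 2792 and 2720 in NC and 2796, 2764 and 2812 in KD pools 1 to 3. Its log2 fold change was -0.02 (standard error 0.08). ANAPC10, which helps to recognize substrates, had the largest fold change of the list. Its abundance was 68.7 ± 15.3 in NC and 48.1 ± 2.99 in KD (SD, n = 3 each), with no overlap, and the log2 fold change was -0.49 (SE 0.25, limma adjusted p = 0.997). Over all genes tested the groups did not overlap in 9.79%, and 4.94% had all KD values below all NC values, as it did.

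Of 6 ubiquitin-conjugating enzymes and deubiquitinases that work with the APC/C, 5 were tested and 0 passed. UBE2D1, one of the enzymes that start ubiquitin chains, measured 228, 231 and 225 in NC and 198, 157 and 164 in KD pools 1 to 3. The KD libraries were all lower, as in 4.94% of all genes tested, at a log2 fold change of -0.40 (SE 0.15, limma adjusted p = 0.956, and 0.018 before adjustment). USP44, a deubiquitinase of the checkpoint and the most abundant of the list, was 5267 ± 471 in NC and 4795 ± 96.5 in KD (SD, n = 3 each), at a log2 fold change of -0.13 (SE 0.09, limma adjusted p = 0.997). Its KD libraries were also all below its NC libraries.

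Of 9 other checkpoint and kinetochore signalling genes, 8 were tested and 0 passed, with 0 at an unadjusted p below 0.05. TRIP13, the ATPase that takes the checkpoint complex apart, was the most abundant, at 1372 ± 99.7 in NC and 1376 ± 84.6 in KD (SD, n = 3 each). ZW10, which brings dynein to kinetochores, had the largest fold change of that list, 0.22 (SE 0.12, limma adjusted p = 0.997).

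Of 15 other substrates and partners, 12 were tested, and CCNB1 was the 1 that passed. CDK1, the kinase that cyclin B1 activates, had no name in the table and was found by its identifier, ENSSSCG00000010214. It was 336 ± 103 in NC and 340 ± 56.9 in KD (SD, n = 3 each), at a log2 fold change of 0.05 (SE 0.19, limma adjusted p = 0.997). ESPL1, the separase that securin restrains, had the highest mean abundance of the list over all 6 libraries, while in NC alone CCNB1 was higher, with a mean of 8553 against 5615. ESPL1 measured 5546, 5979 and 5321 in NC and 7015, 6764 and 5854 in KD pools 1 to 3. KD replicate 3 lay below NC replicate 2, and the log2 fold change was 0.22 (SE 0.09, limma adjusted p = 0.997, and 0.027 before adjustment).

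**Figure D5:**
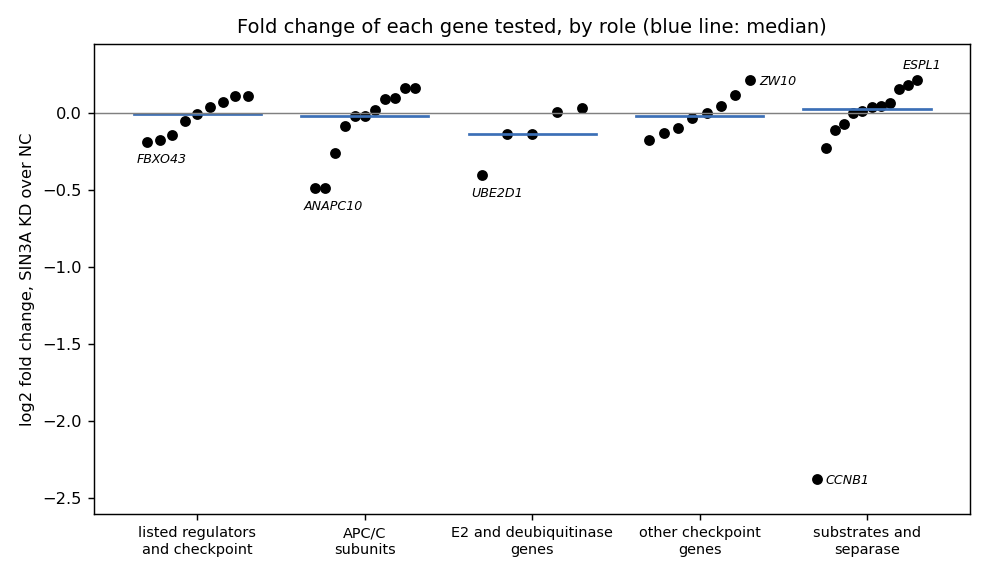
Log2 fold change of SIN3A KD over NC (vertical axis) for each gene tested, with one column for the 9 genes and one for each of 4 lists of the same pathway, and the median of each column as a blue line. CCNB1 lies at -2.37, and every other gene lies between -0.49 (ANAPC10) and 0.22 (ESPL1).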

How the data were processed

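Messenger RNA was sequenced in 3 NC and 3 SIN3A KD pools. Per the submitters' processing notes, Salmon 0.14.1 quantified the reads on Sscrofa11.1 transcripts and DESeq2 was the tool for the groups. The deposited values are a normalized signal per gene, scaled between libraries by the authors, in a single table. How reads that fit several transcripts or either strand were assigned is not given in the sources used here. Between 57.3% and 71.1% of the low values (below 6) lay within 0.03 of a whole multiple of a single step per library, so whole reads were not recovered, no count test was run, and the depth was estimated from that step. Genes with a mean of at least 10 were tested with limma 3.58.1 (R 4.3.3) on log2(value + 1), with a variance trend and Benjamini-Hochberg adjustment over all genes. The fit was tested on simulated data, where it called 86.9% of 2-fold and 100% of 4-fold changes, with 10 unchanged genes called. Changes below 2-fold were not simulated, so this test does not cover the small changes described here. Every simulated gene was given the same dispersion, so it also does not cover spread that differs between genes of like abundance. The log2(value + 1) scale understates changes of low values. Single ratios, other than those with CCNB1, were compared by exact two-sided permutation tests (scipy 1.17.1). Positions, mRNA lengths and sequences came from RefSeq of Sscrofa11.1, read with pysam 0.24.0, where 80.7% of the tested genes matched by symbol. Figures were drawn with matplotlib 3.10.9.

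The genes and lists were chosen with earlier results of these data known. Named were all 9 genes, SIN3A, CCNB1 and, per list, each gene past the adjusted p, the largest fold change and the highest mean. CDK1 also has values, as the partner of CCNB1, and this was decided after they were seen. The GFP and RFP spike-in mRNAs were not used here, so total messenger RNA per embryo was not assessed. Results were recomputed with 0.1 or 10 as pseudocount, without the filter or with its minimum raised to 100, after TMM-like or quantile scaling, without the variance trend, with replicate numbers as blocks, and without each library in turn. A ratio of PTTG1 to CCNB1 could not be computed.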

Additional observations from a re-analysis of the deposited data

How the results depend on the processing

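None of the 9 genes passed the adjusted p in any of 14 alternatives, and their lowest adjusted p was 0.784 by limma. Of 126 comparisons of a gene with an alternative, 120 kept the direction and 6 reversed, all when 1 library was left out. Fold changes (log2) then ranged from -0.14 to 0.030 for BUB1B, from -0.032 to 0.11 for BUB3 and from -0.11 to 0.067 for MAD2L1. Fold changes ranged from 0.00038 to 0.23 for CDC20, which was near 0 without KD replicate 1, from 0.012 to 0.13 for FZR1, from 0.021 to 0.21 for FBXO5, from -0.24 to -0.080 for BUB1 and from -0.21 to -0.070 for TTK. That of FBXO43 ranged from -0.23 to -0.14. Ratios reversed likewise, from -0.072 to 0.11 for CDC20 to FZR1 and from -0.033 to 0.18 for FBXO5 to FZR1. The pathway count was 1, and 0 without the variance trend, where CCNB1 and SIN3A kept their fold changes of -2.37 and -3.81 and each had an adjusted p of 0.423. Over all genes the count past the adjusted p was 19, 0 without the trend (622 at an unadjusted p below 0.05) and 11 to 19 when 1 library was left out, with 12 without NC replicate 2 or 3 and 11 without KD replicate 1 or 2. With the fold threshold it was 15, 0 without the trend and 10 to 14. The cause was not tested. Blocking on replicate number gave 26 genes, none of the 9, and changed no call among them or the pathway genes. Same-numbered libraries correlated at 0.109, 0.111 and 0.0872 after the group means were subtracted, and all 6 correlated best with their own number, a hint from the data and not from the design. Values near 1 read limit the genes below a mean of 10.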

Other observations

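The subunits in this paragraph were named after their values were seen, and a pair of them stood at the floor of the table. ANAPC2, the cullin of the complex, was 0.920 ± 0.864 in NC and 3.30 ± 5.71 in KD (SD, n = 3 each), and CDC23 was 0.955 ± 1.16 in NC and 4.04 ± 4.05 in KD (SD, n = 3 each). Both were listed at 0 in at least 1 library of each group, and ANAPC2 was 0, 0 and 9.90 in KD pools 1 to 3. Whether the embryos held little of these 2 messages or few reads were assigned to them was not tested. ANAPC7 and ANAPC1 of the same complex had NC means of 2827 and 1960, before any correction for length. For ANAPC16 the log2 fold change was -0.48 (SE 0.26, limma adjusted p = 0.997), and its groups overlapped.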
